A study of Mus musculus with 10 samples.

Results

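A set of 10 genes listed as markers of CA3 and CA2 pyramidal cells, the excitatory neurons of the 2 hippocampal fields between the dentate gyrus and CA1, were followed in hippocampi of mice given irisin through the circulation. The genes, Bok, Elavl2, Cdh24, Iyd, Npy2r, Cpne4, Cpne7, Coch, Rgs14 and Pcp4, were taken by symbol from a deposited table of 31510 genes. All 10 were found, and all 10 had values of at least 10 in every library, so each was among the 17556 genes tested. The animals were male APP/PS1 mice (34832-JAX), which carry transgenes for mutant human amyloid precursor protein and presenilin 1 and deposit amyloid in the brain. At 8 months of age they were injected in the tail vein with AAV8-Irisin-FLAG, a viral vector for FLAG-tagged irisin (AAV8-irisin, 5 mice), or with AAV8-GFP, the same kind of vector for green fluorescent protein (5 mice). The liver was the intended source of the secreted protein, and the microdissected hippocampus was taken 2 months later for RNA sequencing. Both groups carried the transgenes and a vector, and no mice without amyloid or without injection were analysed here. Which promoter the vectors carried is not known from the labels.

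CA3 neurons receive the mossy fibres of dentate granule cells, excite one another through recurrent collaterals and send Schaffer collaterals to CA1. CA2 is a small field between CA3 and CA1 whose synapses resist long-term potentiation, a property linked to Rgs14, and it is needed for social memory. Transcripts that mark these fields code for proteins of different kinds, among them receptors, adhesion molecules, calcium-dependent membrane-binding proteins and signalling scaffolds. In tissue RNA from the whole hippocampus, fewer cells of a type and less RNA per cell cannot be told apart, and several of these genes are also transcribed in other neurons.

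Deposited values are normalised counts, which summed to between 35300000 and 36600000 per library, with 22434 to 23035 genes above 0. One library stood apart. In AAV8-GFP mouse 1, genes of GC-rich transcripts had higher values and genes of GC-poor or long transcripts had lower ones. Across 17293 tested genes with an annotated transcript, the log2 deviation of this library from the mean of all 10 libraries had a slope of 0.0974 per 10 percentage points of GC content, against −0.0272 to 0.0053 in the other 9 libraries. GC content and length together accounted for 9.54% of the variance of the deviations in AAV8-GFP mouse 1 and for at most 1.34% in any other library. Among the tested genes, the GC content of Elavl2 stood at the percentile 3.41 and that of Npy2r at 15.3, and those of Cdh24, Bok and Cpne7 stood at 97.3, 97.1 and 91.6.

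None of the 10 markers passed the test for a difference between the vectors. By limma on log2(value + 1) with Benjamini-Hochberg adjustment over all 17556 genes, 0 of 10 had an adjusted p under 0.05, where 0% of all genes tested did. At an unadjusted p under 0.05 there was 1 marker, Cdh24, which was lower in AAV8-irisin. Of all genes 4.49% passed that mark, 2.21% lower and 2.28% higher in AAV8-irisin. Single mice moved the count of markers: it was 0 when AAV8-GFP mouse 3 or 5 or AAV8-irisin mouse 1 or 4 was left out. Which marker passed also changed. Without AAV8-GFP mouse 1 it was Cpne4 and not Cdh24 (unadjusted p = 0.0022 and 0.0777 by limma). Without AAV8-GFP mouse 4 it was Coch and not Cdh24 (unadjusted p = 0.0389 and 0.0538 by limma). Leaving out AAV8-irisin mouse 2 gave 2 markers, and leaving out AAV8-GFP mouse 2 gave 3. No marker had groups that did not overlap, against 0.803% of all genes. The mean was lower for 7 of the 10 in AAV8-irisin, as it was for 49.5% of all genes, and the median log2 difference (AAV8-irisin minus AAV8-GFP) was −0.029 over the markers and 0.00099 over all genes. Without AAV8-GFP mouse 1 the markers' median was −0.070, and without AAV8-GFP mouse 3 it was −0.012.

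**Figure D1:**
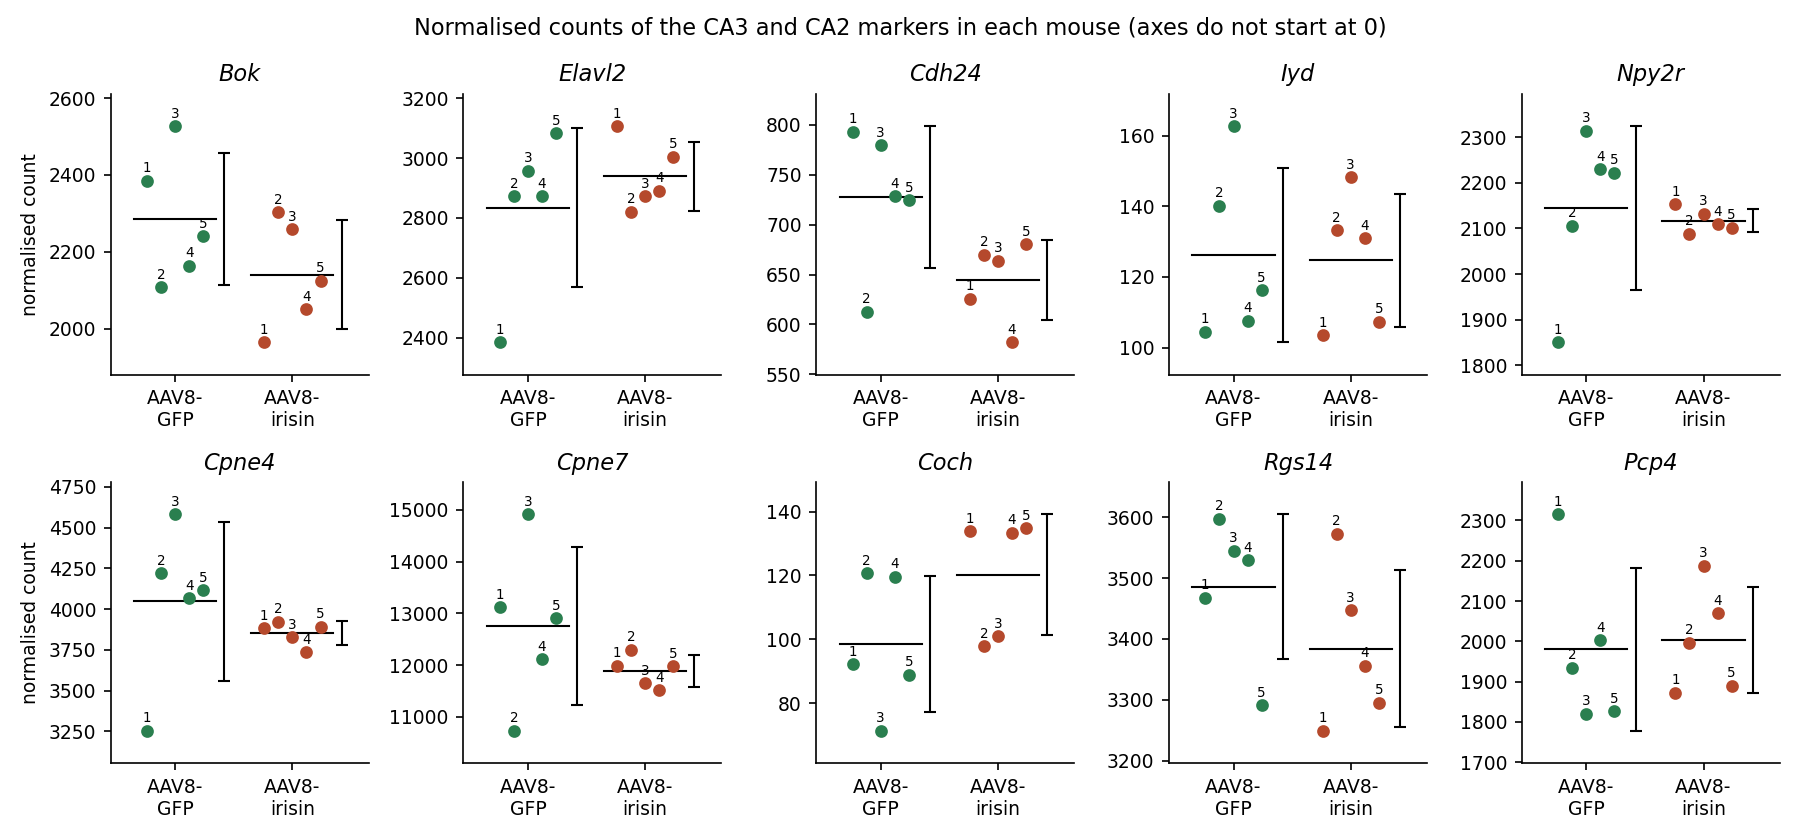
Normalised counts of the 10 markers in each mouse, one panel a gene, with the mouse number above each point; horizontal lines are group means and bars 1 SD (n = 5), and the axes do not start at 0. The groups overlap in every panel, and in Npy2r, Cpne4 and Cpne7 the AAV8-irisin mice lie close together while AAV8-GFP mice 1, 2 or 3 lie far from their group.

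Npy2r and Cdh24 code for proteins of the neuronal surface. Npy2r encodes the Y2 receptor for neuropeptide Y, which sits on presynaptic terminals and reduces glutamate release, and lies on chromosome 3 (82538383 to 82548084, minus strand). AAV8-GFP mice 1 to 5 had 1850, 2106, 2314, 2230 and 2222 normalised counts, and AAV8-irisin mice 1 to 5 had 2153, 2089, 2132, 2110 and 2102. All AAV8-irisin mice fell inside the range of AAV8-GFP, which was set by mouse 1 at its low end and by mouse 3 at its high end. Group means were 2145 ± 180 for GFP and 2117 ± 25.4 for irisin (SD over 5 mice, here and below), a log2 difference of −0.014 with a 95% interval of −0.13 to 0.099 (limma, adjusted p = 0.976).

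Cdh24, a type II cadherin of cell-cell adhesion (chromosome 14, 54631231 to 54641364, minus strand), had the lowest p of the markers. Its normalised counts were 793, 613, 780, 729 and 725 in AAV8-GFP mice 1 to 5. AAV8-irisin mice 1 to 5 had 626, 670, 664, 582 and 680. The AAV8-GFP mice other than mouse 2 lay above all AAV8-irisin mice, and AAV8-GFP mouse 2 lay within the AAV8-irisin range. The means were 728 ± 71.1 and 644 ± 40.4. On the log2 scale they differed by −0.17 (standard error 0.072), and the 95% interval ran from −0.33 to −0.016. Its unadjusted p was 0.0326 by limma (adjusted p = 0.942), and the exact two-sided permutation of the mice gave p = 0.0794. Without AAV8-GFP mouse 2 the difference was −0.23, and without AAV8-GFP mouse 1, the highest of the 10 libraries for this GC-rich transcript, it was −0.14 with an unadjusted p of 0.0777 by limma (adjusted p = 0.982). Over all the alternatives to the main fit that were run, the difference lay between −0.23 and −0.093.

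Copines are calcium-dependent phospholipid-binding proteins that move to membranes when calcium enters a cell. Cpne4 (chromosome 9, 104547286 to 105034544, plus strand) had 3254, 4222, 4581, 4066 and 4116 normalised counts in AAV8-GFP mice 1 to 5 and 3881, 3922, 3828, 3735 and 3891 in AAV8-irisin mice 1 to 5. The AAV8-GFP mice 2 to 5 lay above every AAV8-irisin mouse, and AAV8-GFP mouse 1 lay below every one. The means of 4048 ± 487 and 3852 ± 73.4 gave a log2 difference of −0.063 with a 95% interval of −0.21 to 0.084 (limma, adjusted p = 0.947). Without AAV8-GFP mouse 1 the log2 difference was −0.14, and limma gave an unadjusted p of 0.0022, with 0.982 after adjustment. Without AAV8-GFP mouse 3 it was −0.016, and with each library adjusted for GC content and length it was −0.080 (unadjusted p = 0.206 by limma).

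Cpne7 (chromosome 8, 123117374 to 123135182, plus strand) had 13117, 10734, 14909, 12110 and 12909 normalised counts in AAV8-GFP mice 1 to 5. In AAV8-irisin mice 1 to 5 it had 11987, 12300, 11656, 11516 and 11975. The AAV8-GFP mice 1, 3 and 5 lay above all AAV8-irisin mice and mouse 2 lay below all of them. The means of 12756 ± 1524 and 11887 ± 308 differed by −0.094 on the log2 scale, with a 95% interval of −0.23 to 0.044 (limma, adjusted p = 0.942). The difference was −0.15 without AAV8-GFP mouse 2 (unadjusted p = 0.0089 by limma, adjusted p = 0.794) and −0.036 without AAV8-GFP mouse 3. An exon of Cpne7 overlaps the microRNA gene Mir7080 on the same strand, which leaves its value uncertain.

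The CA2 markers are both regulators of signalling. Rgs14, a scaffold that accelerates GTP hydrolysis on Gi proteins and binds Ras and Rap GTPases (chromosome 13, 55369732 to 55384687, plus strand), had 3468, 3598, 3545, 3530 and 3291 normalised counts in AAV8-GFP mice 1 to 5. AAV8-irisin mice 1 to 5 had 3249, 3573, 3447, 3356 and 3295. It had the smallest spread of the 10 markers within groups on the log2 scale (residual SD 0.052), and its groups overlapped over most of their ranges. The means of 3486 ± 119 and 3384 ± 129 gave a log2 difference of −0.043 with a 95% interval of −0.12 to 0.038 (limma, adjusted p = 0.942), and −0.029 without AAV8-irisin mouse 1.

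Pcp4, a small protein that binds calmodulin and speeds its exchange of calcium (chromosome 16, 96467606 to 96525793, plus strand), had 2315, 1935, 1820, 2004 and 1827 normalised counts in AAV8-GFP mice 1 to 5. AAV8-irisin mice 1 to 5 had 1872, 1996, 2188, 2071 and 1890. AAV8-GFP mouse 1 was the highest of the 10 libraries, while the next highest was AAV8-irisin mouse 3. The means of 1980 ± 202 and 2003 ± 131 gave a log2 difference of 0.020 with a 95% interval of −0.12 to 0.16 (limma, adjusted p = 0.974), and 0.078 without AAV8-GFP mouse 1. An exon of Pcp4 overlaps Igsf5 on the same strand, which leaves its value uncertain. Pcp4 is also strongly transcribed in thalamus and striatum, and the levels of genes from those tissues are given further on.

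Elavl2 and Bok act inside the cell. Elavl2 is a neuronal RNA-binding protein that stabilises messages with AU-rich elements (chromosome 4, 91250763 to 91400785, minus strand), and had 2385, 2873, 2958, 2872 and 3083 normalised counts in AAV8-GFP mice 1 to 5. AAV8-irisin mice 1 to 5 had 3107, 2822, 2872, 2891 and 3005. Mouse 1 of AAV8-GFP was lowest of all, and the other 9 mice were between 2822 and 3107. The means of 2834 ± 265 and 2939 ± 115 gave a log2 difference of 0.057 with a 95% interval of −0.070 to 0.18 (limma, adjusted p = 0.944), and −0.0039 without AAV8-GFP mouse 1.

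Bok, a BCL-2 family protein that binds inositol trisphosphate receptors on the endoplasmic reticulum (chromosome 1, 93685660 to 93695764, plus strand), had 2385, 2108, 2527, 2164 and 2242 normalised counts in AAV8-GFP mice 1 to 5. AAV8-irisin mice 1 to 5 had 1965, 2304, 2258, 2051 and 2125. The AAV8-GFP mice 1 and 3 lay above all AAV8-irisin mice, and the AAV8-irisin mice 1 and 4 lay below all AAV8-GFP mice. The means of 2285 ± 171 and 2141 ± 141 differed by −0.094 on the log2 scale, with a 95% interval of −0.22 to 0.029 (limma, adjusted p = 0.942). The difference was −0.057 without AAV8-GFP mouse 3 and −0.058 after adjustment for GC content and length.

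Coch and Iyd were the least abundant markers. Coch encodes cochlin, a secreted matrix protein best known from the inner ear (chromosome 12, 51593341 to 51605771, plus strand). AAV8-GFP mice 1 to 5 had 92.3, 121, 71.4, 120 and 88.9 normalised counts, and AAV8-irisin mice 1 to 5 had 134, 97.9, 101, 133 and 135. The AAV8-irisin mice 1, 4 and 5 lay above all AAV8-GFP mice, and the AAV8-GFP mice 1, 3 and 5 lay below all AAV8-irisin mice. The means of 98.6 ± 21.3 and 120 ± 18.9 gave the largest log2 difference of the 10 markers, 0.30 (standard error 0.16; 95% interval −0.042 to 0.63; limma, unadjusted p = 0.0814, adjusted p = 0.942). Without AAV8-GFP mouse 3, the lowest for Coch, it was 0.19. Without AAV8-GFP mouse 2, the highest of its group, it was 0.37 (unadjusted p = 0.0361 by limma, adjusted p = 0.794). Iyd, an iodotyrosine deiodinase that recovers iodide in the thyroid (chromosome 10, 3540240 to 3554877, plus strand), had 105, 140, 163, 108 and 116 normalised counts in AAV8-GFP mice 1 to 5. AAV8-irisin mice 1 to 5 had 104, 133, 148, 131 and 107, and the groups overlapped over nearly their whole ranges. Its means of 126 ± 24.7 and 125 ± 18.7 differed by −0.010 on the log2 scale, with a 95% interval of −0.31 to 0.29 (limma, adjusted p = 0.995), which as a ratio of irisin to GFP runs from 0.804 to 1.23.

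**Figure D2:**
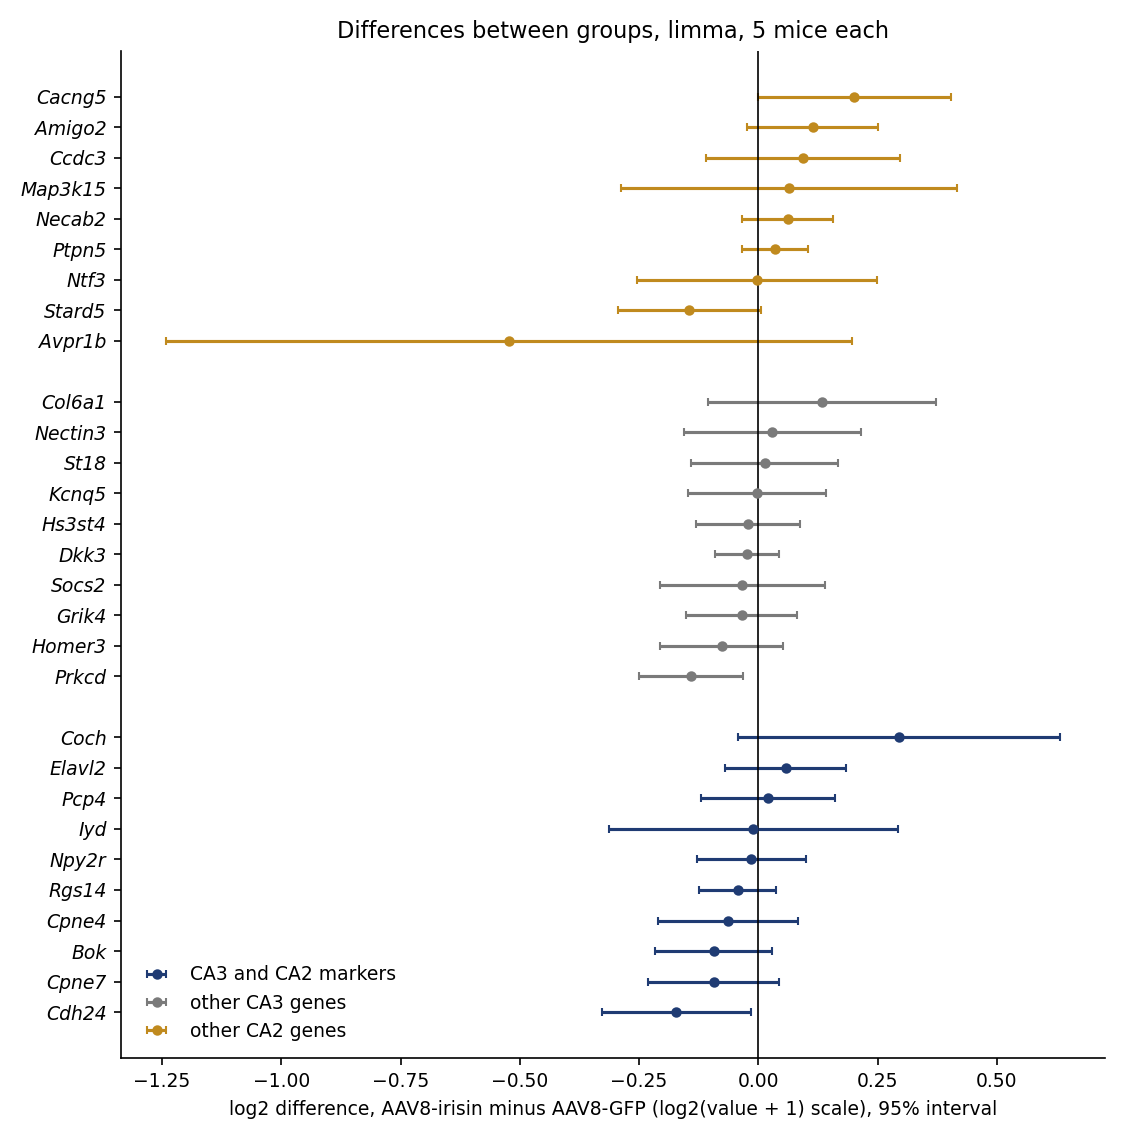
Log2 differences (AAV8-irisin minus AAV8-GFP, limma on log2(value + 1), 5 mice each) with 95% intervals for the 10 markers, 10 other CA3 genes and 9 other CA2 genes. Among the markers the interval of Cdh24 alone leaves out 0, before any adjustment, and those of Coch and Iyd are the widest.

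Per kilobase of annotated exon, the markers spanned a wide range of levels. Over the 10 mice, Cpne7 had 2339 ± 215 normalised counts per kilobase and Pcp4 had 1941 ± 157 (SD, n = 10), and their ranges over mice overlapped. Bok followed with 1203 ± 90.3, below every value of Pcp4. Rgs14 (810 ± 30.3), Cpne4 (718 ± 62.6) and Npy2r (630 ± 36.2) came next, each overlapping its neighbour. Elavl2 (347 ± 24.1), Cdh24 (197 ± 20.1), Iyd (77.3 ± 12.7) and Coch (36.5 ± 7.38) each had a range over mice that lay wholly below that of the gene before it. These levels depend on which annotated exons are counted. Divided by the length of the longest transcript instead, Elavl2 (689 ± 47.9 per kilobase) came before Npy2r (633 ± 36.4), and the other 8 markers kept their ranks.

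A smaller SD in AAV8-irisin than in AAV8-GFP was found for 9 of the 10 markers, all but Rgs14, and for 62.7% of all tested genes. The SD in AAV8-GFP was 7.09 times that in AAV8-irisin for Npy2r, 6.64 times for Cpne4 and 4.95 times for Cpne7. Without AAV8-GFP mouse 1 these ratios were 3.36, 3.17 and 5.66, and without AAV8-GFP mice 1 and 3 they were 2.72, 1.09 and 3.57. No test of this difference in spread was made. Without AAV8-GFP mouse 1, 8 of 10 markers had a smaller SD in AAV8-irisin against 50.1% of all genes, and without AAV8-GFP mice 1 and 3 there were 6 of 10 against 42.9%. Those libraries held the extremes: AAV8-GFP mouse 1 was the lowest or highest of all 10 libraries for 5 markers, AAV8-GFP mouse 3 for 7 and AAV8-irisin mouse 1 for 4.

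**Figure D3:**
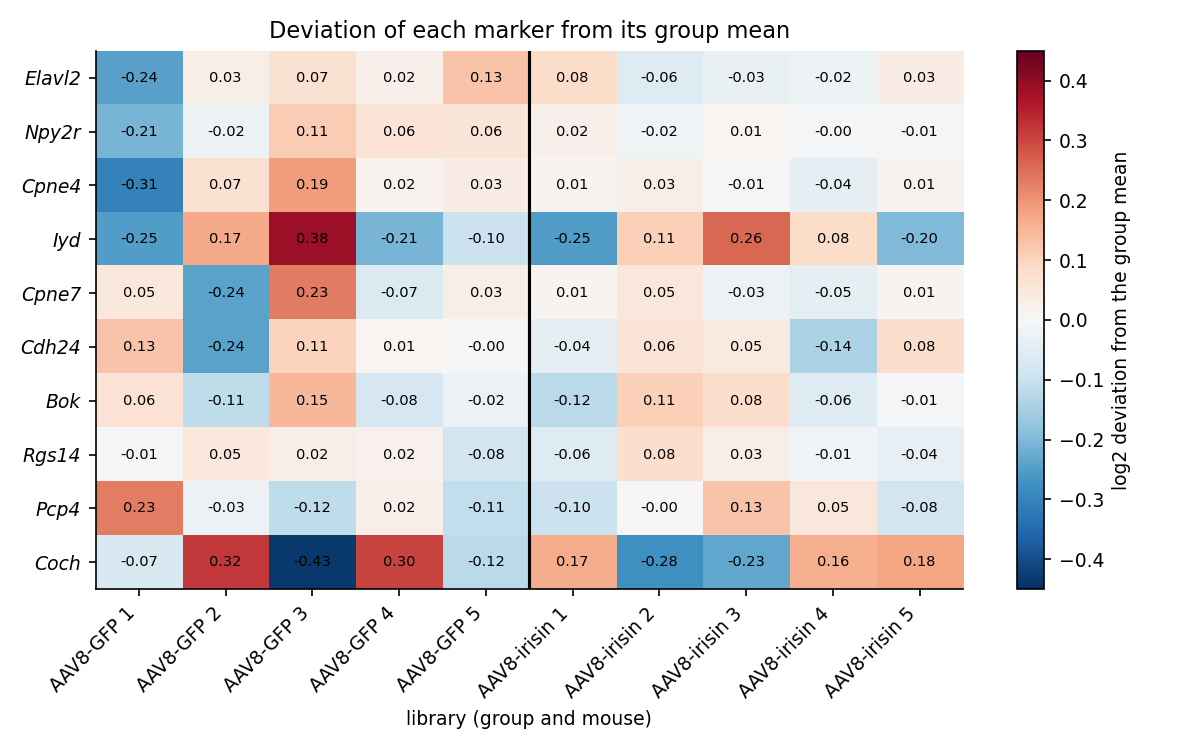
Log2 deviation of each marker (rows) from its group mean in each library (columns), with the value in each cell and the groups divided by a line. AAV8-GFP mouse 1 is low in Elavl2, Npy2r, Cpne4 and Iyd and high in Pcp4, and AAV8-GFP mouse 3 is high in Iyd, Cpne7, Cpne4 and Bok and low in Coch.

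In AAV8-GFP mouse 1 the markers of the most GC-poor transcripts had low values, but so did markers nearer the middle in GC content. Cpne4 (46.5% GC), Iyd (45.7%) and Coch (47.6%) deviated by −0.27, −0.24 and −0.21 on the log2 scale from the mean of the 10 libraries. Elavl2, whose longest transcript is 38.5% GC, deviated by −0.27 on the log2 scale from the mean of the 10 libraries, and Npy2r, at 42.5% GC, by −0.20. The GC-rich Cdh24 (61.2%), Bok (61.0%) and Cpne7 (58.4%) deviated by 0.22, 0.11 and 0.096. Pcp4, at 47.1% GC and at the percentile 1.85 of transcript length, deviated by 0.22. The smooth trend on GC content and length fitted to this library gave −0.10 for Elavl2, −0.067 for Npy2r, −0.059 for Cpne4 and 0.019 for Pcp4, so that deviations of −0.17, −0.13, −0.22 and 0.20 were left after it was taken away. For Bok and Cpne7 the trend gave 0.16 and 0.099, and −0.051 and −0.0038 were left. For Cdh24 it gave 0.12, and 0.093 was left. For Iyd and Coch it gave −0.011 each, and −0.23 and −0.20 were left.

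**Figure D4:**
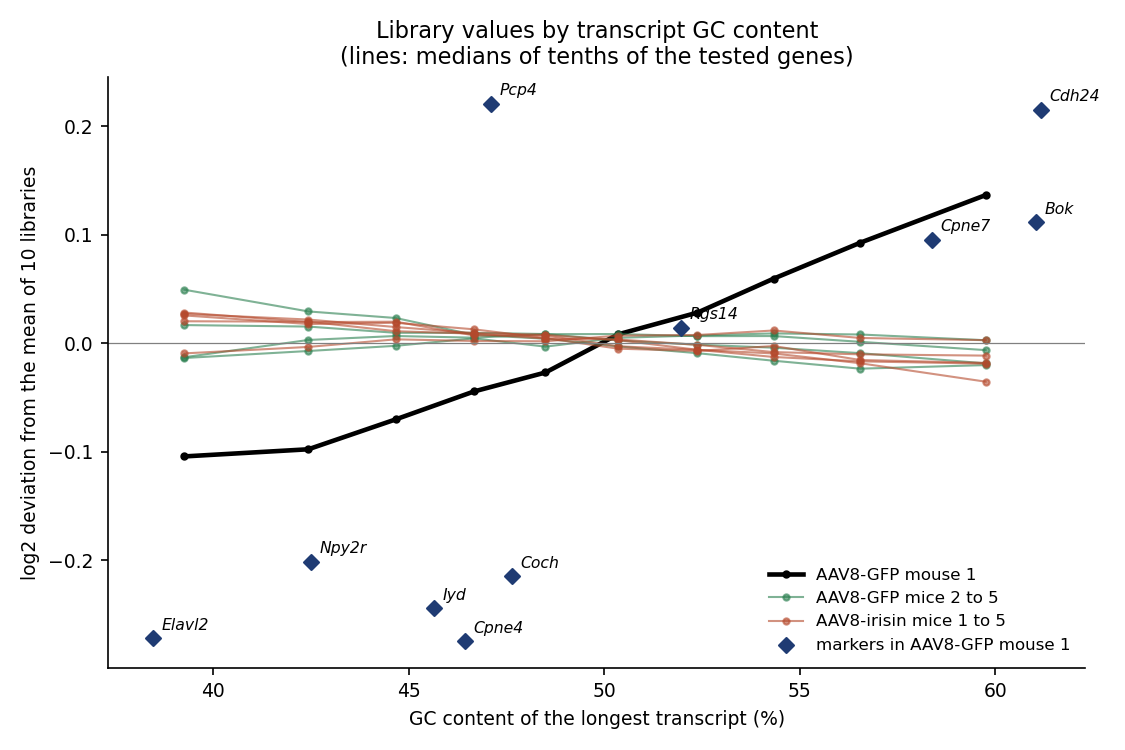
Median log2 deviation of each library from the mean of the 10 libraries (vertical axis) over 10 equal bins of the tested genes ordered by GC content of the longest transcript (horizontal axis, %), with the 10 markers in AAV8-GFP mouse 1 as diamonds. The line of AAV8-GFP mouse 1 runs from −0.10 to 0.14 and those of the other 9 libraries stay between −0.035 and 0.049, while Pcp4, Iyd, Coch and Cpne4 lie far from the line of their library.

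The 10 markers did not vary together as a set between mice. With group means subtracted, 21 of the 45 pairs had a positive correlation over the 10 mice and 24 a negative one. Within-group exact permutation gave 9 pairs an unadjusted p under 0.05, and 0 had an adjusted p under 0.05 over the 45. The share among pairs of all tested genes is not given here, so whether 9 is unusual cannot be told. For Elavl2 and Pcp4, Pearson's r was −0.90 (exact permutation p = 0.0028, adjusted p = 0.0641) and Spearman's rho −0.89 (exact permutation p = 0.0026, adjusted p = 0.116). It was −0.76 without AAV8-GFP mouse 1, −0.77 without the 2 mice farthest from the median of Elavl2 and −0.87 after adjustment for GC content and length. Npy2r and Cpne4 had r = 0.91 (exact permutation p = 0.0443, adjusted p = 0.222) and rho = 0.38 (exact permutation p = 0.384, adjusted p = 0.829). Without AAV8-GFP mouse 1 their r was 0.43 and without the 2 farthest mice −0.056, so that this relation rests on those mice. Elavl2 and Npy2r had r = 0.88 (exact permutation p = 0.0303, adjusted p = 0.171) and rho = 0.61 (exact permutation p = 0.0858, adjusted p = 0.408), and r was 0.38 without AAV8-GFP mouse 1. For Cpne4 and Pcp4 r was −0.82 (exact permutation p = 0.0148, adjusted p = 0.133), and −0.47 without that mouse.

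The other 5 of the 9 pairs were among Bok, Cdh24, Cpne7 and Coch. Bok and Coch had r = −0.91 (exact permutation p = 0.0025, adjusted p = 0.0641) and rho = −0.84 (exact permutation p = 0.0063, adjusted p = 0.142). The value of r was −0.92 without AAV8-GFP mouse 1, −0.82 without the 2 mice farthest from the median of Bok and −0.80 after adjustment for GC content and length. Cdh24 and Cpne7 had r = 0.79 (exact permutation p = 0.0219, adjusted p = 0.141), and 0.81 without AAV8-GFP mouse 1. Rgs14 and Pcp4, the CA2 markers, had r = 0.30 (exact permutation p = 0.403, adjusted p = 0.886), and neither Rgs14 nor Iyd was in any of the 9 pairs.

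**Figure D5:**
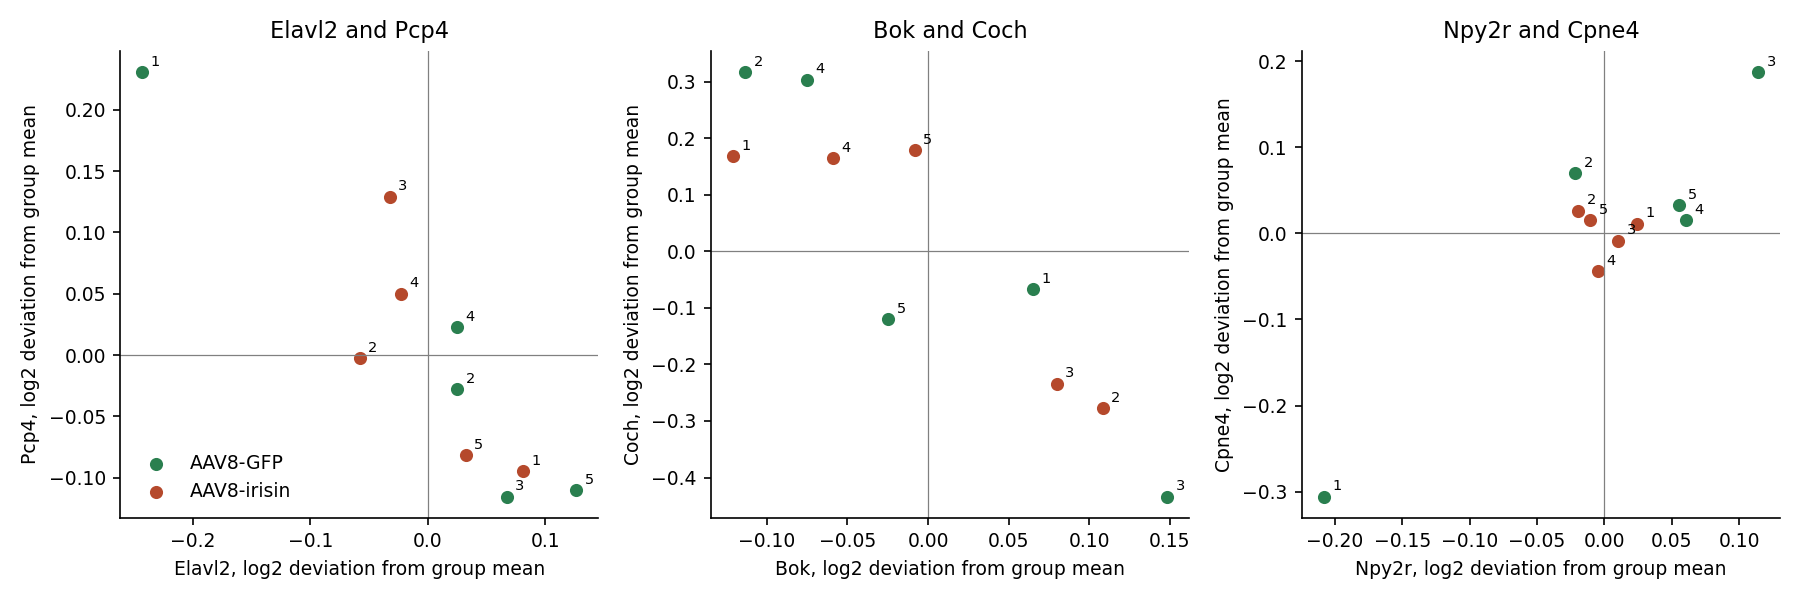
Log2 deviations from the group mean of Elavl2 against Pcp4, Bok against Coch and Npy2r against Cpne4, one point a mouse with its number. Elavl2 and Pcp4 (r = −0.90) and Bok and Coch (r = −0.91) run in opposite directions over both groups, while for Npy2r and Cpne4 AAV8-GFP mice 1 and 3 lie apart from the other 8.

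The promoters of Elavl2, Pcp4, Bok and Coch, the pairs of lowest p, are shown to describe their base composition and short motifs. Neither pair had an adjusted p under 0.05 (exact permutation, adjusted p = 0.0641 for both). No link between promoter and correlation was tested. Windows of 300 bases, from 250 before to 50 after the start of transcription, were taken from RefSeq on GRCm38.p6 for the 8 markers the table holds (not for Cpne7 and Rgs14), with the most upstream start where a gene has several. They are written 5′ to 3′ on the gene's strand, and capitals mark any match, on either strand, to TATAAA (the TATA box), GGGCGG (the GC box), CCAAT (the CCAAT box) or CANNTG (the E-box).
Elavl2 (chr4:91399935-91400234, minus strand): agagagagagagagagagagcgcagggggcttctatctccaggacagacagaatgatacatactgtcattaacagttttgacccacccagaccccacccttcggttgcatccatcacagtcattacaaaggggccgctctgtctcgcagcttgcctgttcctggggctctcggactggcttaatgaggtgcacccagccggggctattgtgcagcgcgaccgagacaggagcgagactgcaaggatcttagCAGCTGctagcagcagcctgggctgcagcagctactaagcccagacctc
Pcp4 (chr16:96467356-96467655, plus strand): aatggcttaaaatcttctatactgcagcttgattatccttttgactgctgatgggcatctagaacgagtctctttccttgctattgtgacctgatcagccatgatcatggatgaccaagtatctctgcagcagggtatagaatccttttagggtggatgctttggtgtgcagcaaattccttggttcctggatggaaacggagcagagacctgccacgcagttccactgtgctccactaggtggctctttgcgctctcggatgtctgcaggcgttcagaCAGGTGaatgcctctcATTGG
Bok (chr1:93685325-93685624, plus strand): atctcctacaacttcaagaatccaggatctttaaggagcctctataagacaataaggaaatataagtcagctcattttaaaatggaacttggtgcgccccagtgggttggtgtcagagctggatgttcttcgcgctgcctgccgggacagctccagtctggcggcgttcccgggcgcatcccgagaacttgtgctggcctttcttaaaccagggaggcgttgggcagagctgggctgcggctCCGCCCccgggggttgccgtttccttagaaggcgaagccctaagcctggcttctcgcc
Coch (chr12:51593091-51593390, plus strand): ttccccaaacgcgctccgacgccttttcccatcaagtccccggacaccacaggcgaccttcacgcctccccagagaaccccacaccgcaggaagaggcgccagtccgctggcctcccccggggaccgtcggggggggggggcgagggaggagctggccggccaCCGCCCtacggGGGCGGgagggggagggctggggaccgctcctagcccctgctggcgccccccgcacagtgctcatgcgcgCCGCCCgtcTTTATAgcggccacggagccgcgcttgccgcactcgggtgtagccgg
Elavl2 had 1 E-box and none of the other motifs, and Pcp4 had 1 E-box and 1 CCAAT box. Bok had 1 GC box, and Coch had 3 GC boxes and 1 TATA match. Several of these lay after the start of transcription. The E-box of Elavl2 began 1 base after it and the TATA match of Coch 3 bases after it. In Pcp4 the E-box began 29 bases and the CCAAT box 45 bases after it. Of 27025 RefSeq promoters of the same length, 14.2% held a TATA box, 35.9% a GC box, 38% a CCAAT box and 72.1% an E-box. GC content was 57% for Elavl2, 48.7% for Pcp4, 56.3% for Bok and 73.7% for Coch, where the median promoter had 52.7%. Such matches describe the letters of these windows, and binding was not measured.

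Outside the list, the gene whose group-centred values were most like those of a marker over the 10 mice was sought among 14808 tested genes with a given name. Being the highest of so many, these correlations are given as a description with no test. Npy2r was closest to Ppp1r12b, a regulatory subunit of myosin phosphatase, with r = 0.99, and Cpne4 to Amot, the scaffold angiomotin, with r = 0.99. Pcp4 was closest to Triap1 (0.98), Cpne7 to the receptor gene Tnfrsf1a (0.97) and Elavl2 to Atp6ap2, an accessory protein of the vacuolar proton pump (0.97). Bok was closest to Coa3, an assembly factor of cytochrome c oxidase (0.95), Cdh24 to Hes7 (0.95), Iyd to the somatostatin receptor gene Sstr3 (0.94) and Rgs14 to the mitochondrial carrier Slc25a43 (0.93). The level of Slc25a43 was low, at 15.8 ± 6.41 (GFP) and 13.0 ± 3.87 (irisin) normalised counts. Without AAV8-GFP mouse 1 the same 9 pairs had r between 0.87 for Elavl2 and 0.97 for Cpne7. After adjustment for GC content and length r ran from 0.80 for Elavl2 to 0.98 for Pcp4, with 0.82 for Bok and 0.85 for Rgs14. None of these 9 was another CA3 or CA2 gene of the lists used here.

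Of 10 other CA3 genes, none passed the test in either direction, 7 had a lower mean in AAV8-irisin and the median log2 difference was −0.023. Prkcd, a protein kinase C of CA3 and thalamic neurons, had means of 839 ± 45.5 (GFP) and 760 ± 23.2 (irisin) normalised counts, a log2 difference of −0.14 (limma, unadjusted p = 0.0143, adjusted p = 0.942), with 4 of 5 AAV8-irisin mice below all AAV8-GFP mice. Homer3, a postsynaptic scaffold, had 2134 ± 222 and 2015 ± 56.9. Of 9 other CA2 genes none passed, 6 had a higher mean and the median was 0.061. Cacng5, an auxiliary subunit of AMPA receptors, had 305 ± 34.7 and 350 ± 37.1, a log2 difference of 0.20, and Stard5, a sterol-binding protein, had 463 ± 25.0 and 419 ± 36.7, a log2 difference of −0.14 (limma, adjusted p = 0.942 for both). Like the 10 markers, both lists held differences of both signs.

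Relatives and partners of the markers also gave no call by limma at an adjusted p under 0.05. Among the 7 other copines, 4 had a lower mean (median log2 difference −0.057), with 533 ± 55.4 and 459 ± 43.7 normalised counts of Cpne9 (log2 difference −0.21) and 1741 ± 63.8 and 1609 ± 122 of Cpne2 (−0.12, and −0.068 without AAV8-irisin mouse 5). Neuropeptide Y itself, Npy, had 879 ± 49.9 and 790 ± 62.1 (log2 difference −0.16), and the Y1 receptor gene Npy1r had 1109 ± 100.1 and 1164 ± 89.2. Of the 5 genes of that system 3 were tested, since Pyy and Ppy were listed at 0 in every library. In the list of Rgs14 relatives and partners, 4 of 7 had a higher mean (median 0.0087), and the GTPase gene Hras had 3110 ± 169 and 2823 ± 167 (log2 difference −0.14) and the Gi subunit gene Gnai2 had 6304 ± 160 and 6046 ± 277. The 7 partners and relatives of Bok had 5 lower means (median −0.021), with log2 differences of −0.093 for the receptor gene Itpr2 (−0.062 without AAV8-GFP mouse 3) and 0.052 for Bcl2 (0.021 to 0.10 with single mice left out). The 11 other type II cadherins had 8 higher means (median 0.083), a sign opposite to that of Cdh24, with 0.24 for Cdh12 (0.14 without AAV8-GFP mouse 1) and 0.14 for Cdh7. The 3 other ELAV genes had a median of 0.019, with −0.035 for Elavl3 (−0.0073 without AAV8-GFP mouse 1) and 0.053 for Elavl4 (0.017 without AAV8-irisin mouse 1). Calmodulin genes and other calmodulin-binding proteins had a median of −0.021 over 8 genes, with 0.19 for the kinase gene Camk4 and −0.084 for Nrgn, which encodes neurogranin. These were 0.072 and −0.041 without AAV8-GFP mouse 1.

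Genes of neighbouring fields and tissues were present at levels that overlapped between the groups, and no gene of those lists was at 0 in all libraries. Summed over the list, 7 thalamic genes gave 2678 to 2929 normalised counts with the GFP vector and 2834 to 2904 with the irisin vector, led by Rora and Plekhg1. The 7 striatal genes gave 5062 to 5664 and 5248 to 6003, led by Pde10a and Ppp1r1b. Genes of neocortex and subiculum (7 of 7 tested) gave 8577 to 11462 and 9965 to 11306, led by Fn1 and Tshz2. Dentate granule genes (8 of 8, led by Prox1 and C1ql2) gave 14269 to 17533 and 14787 to 17415, and CA1 genes (9 of 9 in the table, led by Mpped1 and Fibcd1) gave 34123 to 36721 and 34342 to 36471. The 7 interneuron genes, led by Gad1 and Sst, gave 22619 to 27395 and 25254 to 27361, and the 5 hilar mossy cell genes, led by Calb2 and Sv2c, gave 2256 to 2504 and 2303 to 2448. The 7 choroid plexus genes gave 743 to 1015 and 952 to 2706. Of these 6 were tested, and all 6 had a higher mean in AAV8-irisin. In AAV8-GFP most of the sum came from 1 gene, so the summed levels say little about the other choroid genes. The choroid gene Ttr had 29.5 ± 18.0 and 369 ± 650 normalised counts. AAV8-irisin mouse 4 stood apart with 1528 of Ttr. Without that mouse Ttr had 79.4 ± 63.1 in AAV8-irisin, and 5 of the 6 tested genes had a higher mean. The 6 tested genes summed to 945 to 2671 in AAV8-irisin with that mouse and to 945 to 1150 without it. The 6 meningeal and fibroblast genes, with Dcn and Igf2 highest, gave 2253 to 3179 and 2326 to 3505. The 8 pan-neuronal genes, led by Snap25 and Syt1, gave 218531 to 240642 and 229145 to 237011.

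Markers were also compared with the mean group-centred log2 value of 14 such lists, the other CA3 and CA2 genes among them. Of these 140 correlations over 10 mice, 11 had an unadjusted exact permutation p under 0.05 and 0 an adjusted one, with a smallest adjusted p of 0.562. The share for other genes against these lists is not given here. Npy2r had r = −0.82 with genes of neocortex and subiculum (exact permutation p = 0.0207) and rho = −0.85 (exact permutation p = 0.031). Its r was −0.79 without AAV8-GFP mouse 1 and −0.58 without the 2 mice farthest from that list's median. The lowest p was that of Cdh24 with meningeal and fibroblast genes, at r = −0.75 (exact permutation p = 0.0143) and rho = −0.70 (exact permutation p = 0.0414), with r = −0.69 without the 2 farthest mice. Npy2r with striatal genes had r = −0.64 (exact permutation p = 0.0158) and rho = −0.65 (exact permutation p = 0.0538), with r = −0.66 without the 2 farthest mice. Pcp4 had r = −0.76 with pan-neuronal genes (exact permutation p = 0.022) and rho = −0.79 (exact permutation p = 0.0193), and r = −0.75 with the other CA3 genes (exact permutation p = 0.0396) and rho = −0.73 (exact permutation p = 0.0362). Without the 2 farthest mice its r was −0.66 and −0.60. Cpne4 with pan-neuronal genes had r = 0.70 (exact permutation p = 0.0243) and rho = 0.67 (exact permutation p = 0.031), with r = 0.63 without the 2 farthest mice. Rgs14 had r = 0.70 with dentate granule genes (exact permutation p = 0.0342) and rho = 0.65 (exact permutation p = 0.0691), and r = 0.86 without the 2 farthest mice. Cpne7 had r = −0.69 with the other CA2 genes (exact permutation p = 0.0398), and −0.42 without the 2 farthest mice. Cpne4 had r = −0.61 with thalamic genes (exact permutation p = 0.0424), and −0.47 without the 2 farthest mice. For Npy2r and CA1 genes r was −0.54 (exact permutation p = 0.0486), and −0.25 without the 2 farthest mice. Not all of the 11 are listed. The part of tissue composition in any marker's value was not tested.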

How the data were processed

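Polyadenylated RNA of hippocampi from 10 mice was sequenced, per the labels' protocols. From the submitters' processing notes come bcl2fastq 2.17, DESeq2 (no version) and the build mm10. Aligner, counter, strand setting and gene annotation: not given in the sources used here. Values deposited by the authors are non-negative signal, DESeq2 normalised counts for each gene in each library. The commonest low value, 0.882 to 1.17 in a library, was taken as 1 read, which puts the depth at about 30700000 to 41500000 reads; 63.2% to 78.2% of values under 6 were whole multiples of it within 0.1, so whole reads were not recovered, the planned count tests were not run and precision is given as the spread between mice.

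Groups came from the titles, which name separate mice. Genes reaching 10 in 5 or more libraries were tested on log2(value + 1) with limma 3.58.1 (R 4.3.3; lmFit, eBayes with trend, group as the only factor, two-sided, Benjamini-Hochberg, threshold 0.05). This scale understates differences of genes with low values. The test was tested on simulated data. Correlations used deviations from group means and all 14400 within-group orders of the mice (numpy, scipy 1.17.1). The exact permutation of group labels used all 252 assignments, whose smallest p is 0.0079. Positions, exon lengths and GC content are from GENCODE M21 on mm10, matched by symbol for 98.5% of tested genes.

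The markers, the companion lists and the naming rule (2 genes of smallest p per companion list, 2 of highest level per marker list, 1 most alike gene per marker) were chosen with earlier results of these data known. A few results under this rule are not reported here. Alternatives varied the pseudocount, filter, prior, scaling, library weights, replicate block and libraries; the adjustment for GC content and length (natural splines of 5 degrees of freedom each) and the omission of AAV8-GFP mice 1 and 3 together were chosen after seeing the data.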

Additional observations from a re-analysis of the deposited data

Results flagged for a closer look

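One sample lay far from the other 4 of its group in 6 of 60 groups of 5 examined, where chance gives about 1 in 20, and none of the 6 was a value of one of the 10 markers. The slope on GC content was 0.0974 in AAV8-GFP mouse 1 and between −0.0272 and 4.43e-06 in the other 4 AAV8-GFP libraries (log2 units per 10 percentage points). In the same mouse Elavl3 had 10991 normalised counts against 9759 to 10088 in the rest of AAV8-GFP, and Nrgn had 48749 against 41091 to 43198. In AAV8-irisin mouse 1 Elavl4 had 2341 normalised counts against 2038 to 2088 in the rest of its group, and Npy1r had 1007 against 1174 to 1218. Camk4 had 1243 normalised counts in AAV8-irisin mouse 3 and 1366 to 1414 in the other 4 AAV8-irisin mice.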

How the results depend on the processing

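No marker had an adjusted p under 0.05 under any of 22 alternatives, and neither did any gene of the companion lists. Over all genes, 1 gene was called with no filter on low values (adjusted p = 0.0108 by limma) and 1 with a filter of 1 in 5 libraries (adjusted p = 0.0385), in both the predicted gene Gm49383, chosen for mention after its value was seen. The markers' median log2 difference kept its sign throughout, between −0.070 and −0.012 with single mice left out. With quantile normalisation 4 pairs of markers had an adjusted p under 0.05 (Bok with Cpne7, Bok with Coch, Elavl2 with Pcp4, Cdh24 with Cpne7), and with single mice left out the number ran from 0 to 1. Signs of small differences turned: with single mice left out, Elavl2 ran from −0.0039 to 0.089, Iyd from −0.075 to 0.086, Npy2r from −0.066 to 0.014 and Pcp4 from −0.012 to 0.078, and without AAV8-GFP mice 1 and 3 Elavl2 was −0.0018, Iyd 0.035 and Cpne7 8.5e-05. The cause was not tested. The mouse numbers did not pair the libraries: deviations of same-numbered mice correlated at −0.089 to 0.030, and with the number as a replicate block 0 markers and 0 genes were called, with an unadjusted p of 0.0438 for Cdh24 by limma. Counts behind low values such as Coch and Iyd are not known, which limits what their intervals can show.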
